A study of Chlorocebus sabaeus with 18 samples.

Results

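COS-7 cells made to overexpress TRA2A (GFP_TRA, 3 samples) were compared with untreated COS-7 cells (CTL, 3 samples), which are 6 of the 18 samples of the study. COS-7 is a fibroblast-like kidney line of the African green monkey that carries the large T antigen of SV40. The samples were assigned by their titles and stated conditions, and the libraries are lettered a, b and c because the count columns carry numbers that are not those of the titles. The study also held cells transfected with an expansion of 60 CGG repeats in the leader of FMR1 (CGG), cells in which TRA2A had been knocked down (siTRA), and cells given the expansion plus TRA2A knockdown (CGG_siTRA) or plus TRA2A overexpression (CGG_TRA), each with 3 samples. Counts were analysed here for 15 of the samples, and CGG_TRA entered only through the authors' splicing table. No group is labelled as having had an empty vector or a control siRNA, so the effect of transfection and that of TRA2A cannot be told apart in a comparison with CTL. In CGG_siTRA vs CGG, likewise, the knockdown treatment itself and the loss of TRA2A cannot be told apart. The labels do not say whether the 3 samples of a group came from separate cultures, so each p-value refers to the spread among these samples alone.

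TRA2A is an RNA-binding protein of the SR-like family, with arginine- and serine-rich domains on both sides of an RNA recognition motif. It binds purine-rich sequences in exons and is known mainly as an activator that helps the splicing machinery to include the exon it sits on, alongside its paralogue TRA2B. The study's title places it in the RNA-protein complexes that form on expanded CGG repeats in FXTAS, the tremor and ataxia syndrome of FMR1 premutation carriers. Exon bins are the pieces into which the exons of a gene are divided where annotated transcripts differ, and the number of reads on each bin shows how that piece is used.

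The 3 GFP_TRA libraries held 163285559 to 197959512 counts summed over bins, and the 3 CTL libraries 158798082 to 184536074. Reads of monkey cells had been aligned to the human assembly GRCh38.p10, so all positions below are human, and reads where the monkey and human genomes diverge can be missing. The files pair no gene names with their Ensembl identifiers, and 0 of 23133 identifiers were paired by the reference table used here. Genes are therefore given by position, TRA2A excepted, and gene functions, pathway lists and the cell type markers of COS-7 were not checked. On the first principal component of the gene values, which held 20.5% of the variance, the GFP_TRA libraries lay at -15.5 to -7.82 and the CTL libraries at -32.6 to -31.4. Library b of siTRA stood apart from all others, at 58.0. It also entered the estimate of the spread that all gene and bin tests share, so counts and medians it touches are given without it as well. The siTRA averages of TRA2A and of the other genes given with one were 0.872 to 1.142 times as high without it.

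The overexpressed gene was taken as ENSG00000164548.10 at chr7:23504780-23532041 on the minus strand, the only gene that rose at least 2-fold in GFP_TRA and fell at least 2-fold in siTRA vs CTL and in CGG_siTRA vs CGG. Its normalised count was 204942, 187106 and 221793 in GFP_TRA and 17143, 17234 and 16912 in CTL. The groups did not overlap, and the change on the log2 scale was 3.57 ± 0.11 (SE; adjusted p = 6.98e-13 by the quasi-likelihood test of edgeR, Benjamini-Hochberg over 14969 genes). The mean count was 16252 ± 701 in the CGG libraries, 3914 ± 917 in those of siTRA and 4274 ± 221 in those of CGG_siTRA (SD, n = 3 each). The gene was chosen by this pattern, so its levels are no check of the labels.

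The rise at TRA2A was carried by a part of its bins. Of 32 bins, 27 had a mean of 10 or more in GFP_TRA or CTL. Of these, 16 bins with 1344 bases in all were 6.07 to 56.8 times as high in GFP_TRA as in CTL (median 14.2), and 11 were 0.526 to 1.24 times as high (median 0.902), with none in between. The 16 raised bins summed to 203445, 185679 and 220163 in GFP_TRA and to 15643, 15552 and 15299 in CTL. The other 11 bins summed to 1465, 1409 and 1603 in GFP_TRA and to 1461, 1660 and 1581 in CTL, so these sums overlapped between the groups. In siTRA the same 11 bins summed to 0.408 times their CTL mean and the 16 raised bins to 0.211 times theirs, or to 0.332 and 0.186 times without library b of siTRA.

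The 11 bins that were not raised lay in 3 places along the gene. At the 5′ end they were the outermost pieces, such as chr7:23531982-23532023, with 55.6 ± 13.5 in GFP_TRA and 47.4 ± 11.4 in CTL (SD, n = 3 each). Inside the gene they were chr7:23521841-23522432 and the bins at chr7:23531181-23531270 and chr7:23531417-23531680, of which the last had 18.7 ± 8.17 in GFP_TRA and 35.6 ± 7.08 in CTL. At the 3′ end they were the last pieces, of which the widest, chr7:23504784-23505248, had 540 ± 74.6 in GFP_TRA and 513 ± 51.5 in CTL. The raised bins between them reached 36509 ± 3699 in GFP_TRA and 2277 ± 37.6 in CTL at chr7:23512894-23513024. The largest fold was at chr7:23505570-23505745, a piece with 641 ± 21.5 in GFP_TRA and 11.3 ± 1.41 in CTL. When bin use was tested relative to the whole gene, 15 bins of the locus passed, 14 of them lower and 1 higher in GFP_TRA (edgeR's diffSpliceDGE, adjusted p under 0.05).

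**Figure D1:**
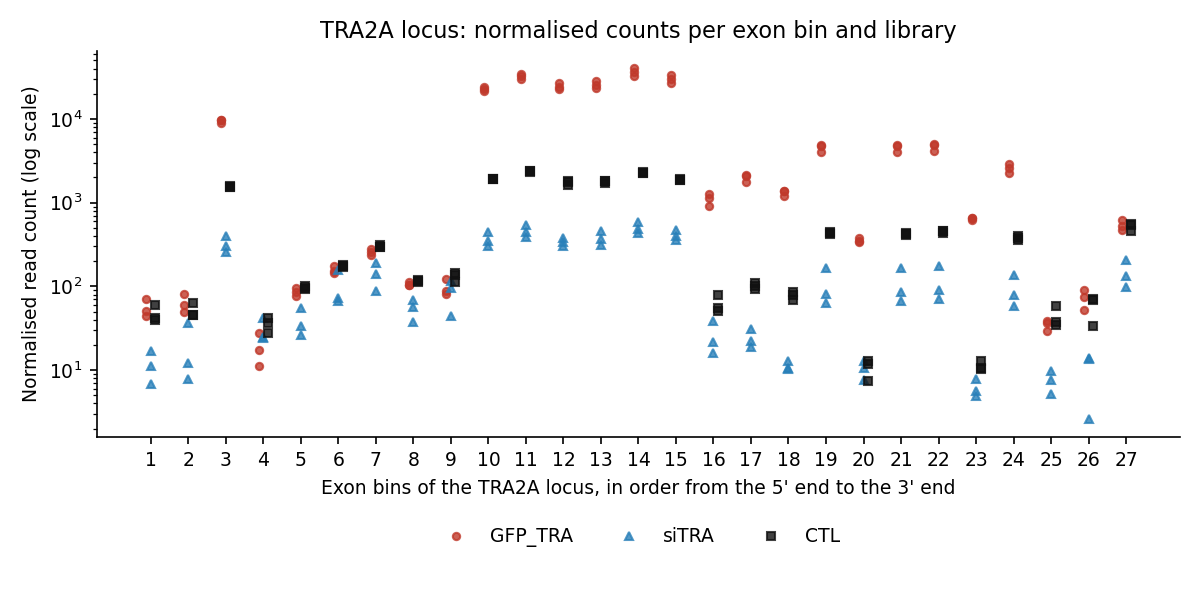
Normalised read count (log axis) of the 27 TRA2A bins with a mean of 10 or more in GFP_TRA or CTL, in order from the 5′ end, with 1 point per library in GFP_TRA, siTRA and CTL. In 16 bins the GFP_TRA libraries lie 6.07 to 56.8 times above CTL, and in 11 bins they lie among or near the CTL libraries.

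Across the genome, 4323 of 14969 genes (28.9%) passed the gene test in GFP_TRA vs CTL, 2172 of them higher (14.5%) and 2151 lower (14.4%). The libraries of the groups did not overlap for 7373 genes (49.3%). Rises and falls were thus nearly equal in number, but they differed in size. The scaling places the typical gene near no change, so the near-equal numbers are partly set by it. A change of 2-fold or more was called higher for 77 genes (0.514%) and lower for 367 genes (2.45%). In bulk RNA, fewer cells of a kind and less of an RNA in each cell cannot be told apart.

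Strong falls outnumbered strong rises at low and at high level, and most strong falls were in genes of low level. Among the 5850 genes with a mean normalised count under 1000, 56 were at least 2-fold higher and 314 at least 2-fold lower in GFP_TRA. Among the 9119 genes at 1000 or more, the counts were 21 and 53. Over called changes of any size, falls outnumbered rises at low level only. Below 1000, 270 genes were higher and 773 lower, while at 1000 or more 1902 were higher and 1378 lower. The median level of the 367 strong falls was 69.5, that of the 77 strong rises 111, and that of all genes tested 2323. A gene entered the test with 10 or more normalised counts in at least 3 libraries of any group, so a low gene could enter through CTL alone. The level was averaged over all 15 libraries, most of them treated, so a fall shared by the treated groups also lowers a gene's level. Under a mean of 30, all genes called, 18 higher and 95 lower, had changed at least 2-fold, with a median SE of 0.63. The spread of strong changes over levels is thus partly set by the axis and the test.

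**Figure D2:**
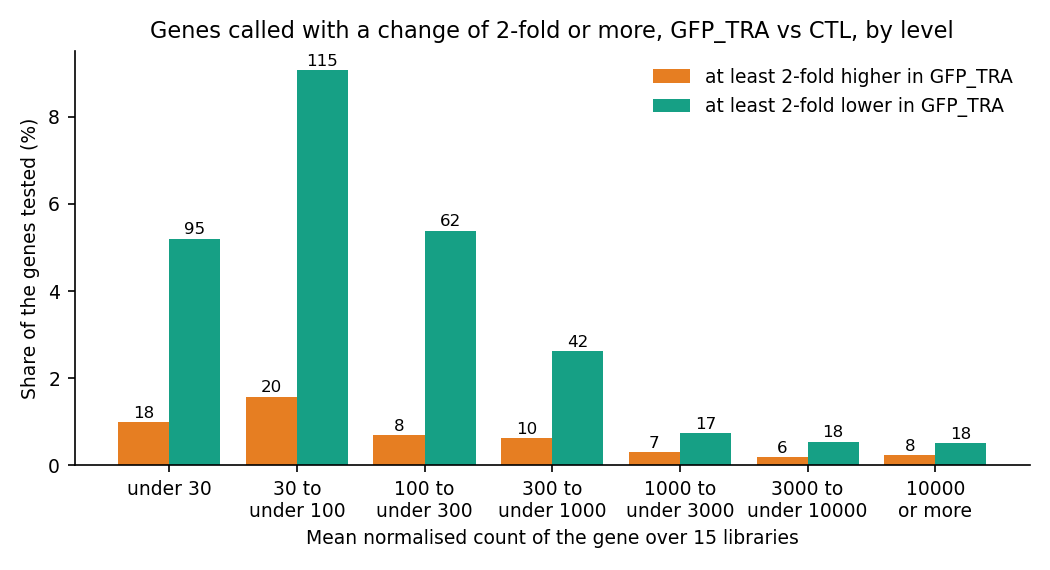
Share of genes tested (%) that were called at least 2-fold higher or lower in GFP_TRA vs CTL, by mean normalised count over 15 libraries, with the number of genes above each bar. Falls outnumber rises in every class. The share of falls is highest at 30 to under 100, with 20 genes higher and 115 lower, and at 10000 or more 8 genes are higher and 18 lower.

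The 15 largest rises among single genes with no overlap between the groups ran from a log2 change of 1.68 to 3.88. The largest was ENSG00000163121.9 at chr2:96497646-96505357, with 43.9, 62.2 and 44.9 in GFP_TRA and 0, 5.6 and 3.9 in CTL. It changed by 3.88 ± 0.51 on the log2 scale (SE; adjusted p = 2.07e-05, edgeR). One of the CTL libraries had no count there. All 3 GFP_TRA libraries were above all CTL libraries, as the list required.

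The most abundant genes in that list, after TRA2A, lay on chromosomes 22 and 5. The gene at chr22:35380361-35394214 had 59492, 50649 and 53342 in GFP_TRA and 7026, 7927 and 7097 in CTL, a change of 2.88 ± 0.13 on the log2 scale (SE; adjusted p = 5.42e-11, edgeR). The gene at chr5:179806398-179838078 had 42785, 38358 and 40738 in GFP_TRA and 8176, 8137 and 7780 in CTL, a change of 2.33 ± 0.09 (adjusted p = 1.45e-11, edgeR). In each of these 2 genes the spread within a group was far below the distance between the groups. The 9 bins of the first that reached 10 in the higher group were all higher in GFP_TRA, as were 25 of 26 such bins of the second.

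A pair of genes that lie close to each other on chromosome 7 were both among these rises. The gene at chr7:134527592-134541408 had 5947, 4932 and 5850 in GFP_TRA and 674, 741 and 640 in CTL. The gene at chr7:134564788-134579875 had 162, 136 and 209 in GFP_TRA and 60.1, 21.4 and 12.7 in CTL. Their log2 changes were 3.01 and 2.43 (adjusted p = 2.38e-10 and 3.98e-05, edgeR). Both were higher still in the other treated groups, where the first averaged 12687 in CGG, 9263 in siTRA and 8967 in CGG_siTRA. The second averaged 421, 344 and 351 there. If such neighbours have near-identical copies, the split of reads between them is uncertain, and this was not checked without sequences.

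Further rises had moderate counts. The gene at chr9:128149441-128153455 had 553, 745 and 608 in GFP_TRA and 96.6, 110 and 57.6 in CTL. The gene at chr12:57516588-57520517 had 6052, 5826 and 6899 in GFP_TRA and 1740, 1748 and 1599 in CTL. Both were called in every fit that left out 1 library, with adjusted p of at most 1.05e-07 (edgeR).

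The 15 largest falls, also taken among single genes with no overlap between the groups, ran from a log2 change of -3.82 to -2.20. Most of them were genes of low count. The largest was ENSG00000111181.12 at chr12:190077-210043, with 7.8, 4.6 and 0 in GFP_TRA and 82.7, 50.2 and 51.7 in CTL (log2 change -3.82 ± 0.81, SE; adjusted p = 0.00182, edgeR). The next was ENSG00000141485.16 at chr17:6684713-6713567, with 21.5, 9.1 and 31.4 in GFP_TRA and 162, 212 and 106 in CTL (adjusted p = 0.000276, edgeR). At such counts a single library moves the mean. No GFP_TRA library reached the lowest CTL library in either gene, but the list admitted only such genes. Of the 28 bins of the first, 0 averaged 10 or more in GFP_TRA or CTL, and of the 34 bins of the second, 1 did.

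A few of the largest falls were in genes with higher counts, of which the first given here was well covered. The gene at chr17:80467148-80477843 had 8286, 9278 and 8086 in GFP_TRA and 45864, 46854 and 47066 in CTL, a change of -2.46 ± 0.08 on the log2 scale (SE; adjusted p = 1.55e-12, edgeR). All 11 of its bins that reached 10 in the higher group were lower in GFP_TRA. On chromosome 1, 3 of the 15 genes lay between positions 11189341 and 12617731. The gene at chr1:11857464-11858931 had 278, 211 and 206 in GFP_TRA and 1542, 1607 and 1386 in CTL. The gene at chr1:12567910-12617731 had 138, 169 and 133 in GFP_TRA and 825, 830 and 642 in CTL. The gene at chr1:11189341-11195981 had 183, 186 and 208 in GFP_TRA and 977, 916 and 727 in CTL. In all 3 the groups were far apart, with log2 changes of -2.72, -2.39 and -2.20 (adjusted p of at most 5.29e-07, edgeR).

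Beyond these lists, chosen after their values were seen, stand the genes with a mean count of 10000 or more and a change of at least 2-fold. Among single genes they numbered 8 higher, TRA2A included, and 17 lower. The gene at chr19:48965301-48966878 had 190218, 189704 and 196288 in GFP_TRA and 79657, 79069 and 70675 in CTL. The gene at chr11:61959718-61967660 had 160810, 167202 and 159665 in GFP_TRA and 68009, 67898 and 67054 in CTL. Their log2 changes were 1.32 and 1.25 (adjusted p = 6.51e-09 and 3.48e-08, edgeR), and the libraries of a group lay close together in both. The first averaged 255239 in CGG, 264084 in siTRA and 253419 in CGG_siTRA, and the second 174711, 168792 and 172824. In both genes every treated group thus lay above CTL.

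On the falling side, the gene at chr15:39581079-39599466 had 189028, 173604 and 169385 in GFP_TRA and 383900, 373613 and 425489 in CTL. The gene at chr13:110148963-110307149 had 128354, 126991 and 140883 in GFP_TRA and 302858, 279024 and 273202 in CTL. Their log2 changes were -1.17 and -1.12 (adjusted p = 8.63e-09 and 2.18e-09, edgeR). The first averaged 140907 in CGG, 153932 in siTRA and 153796 in CGG_siTRA, and the second 150434, 134544 and 146952. In both genes every treated group thus lay below CTL. A gene at chr11:111908565-111923722 had 5194, 5342 and 5299 in GFP_TRA and 15294, 16381 and 17698 in CTL, a change of -1.65 ± 0.12 on the log2 scale (SE; adjusted p = 2.56e-08, edgeR). That gene averaged 16217 in CGG, 12570 in siTRA and 10717 in CGG_siTRA. Against the mean of those 3 groups its log2 change was -1.38 (adjusted p = 7.8e-08, edgeR), and -1.45 without library b of siTRA.

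GFP_TRA was also set against the mean of CGG, siTRA and CGG_siTRA, in a contrast that shares the GFP_TRA libraries with the comparison above but not CTL. In it 2231 genes were higher (14.9%) and 1975 lower (13.2%) in GFP_TRA. Without library b of siTRA, 2465 were higher and 2508 lower. TRA2A itself had a log2 change of 4.90 there (adjusted p = 3.69e-18, edgeR), against groups of which 2 had it knocked down.

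Strong rises and strong falls differed in this contrast. Of the 77 genes at least 2-fold higher than CTL, 7 were also higher than the other treated groups, 18 were lower and 52 were not called. Of the 367 at least 2-fold lower than CTL, 178 (48.5%) were also lower than the other treated groups, 15 were higher and 174 were not called. Without library b of siTRA, 8 of the strong rises were higher and 21 lower, and 16 of the strong falls were higher and 191 lower. The median log2 change against the other treated groups was 0.01 for the strong rises and -0.70 for the strong falls, and -0.02 and -0.69 without that library. The lists were chosen on the GFP_TRA libraries, so this contrast is not independent of them.

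Each group was also set against CTL, whose libraries all these comparisons share. The median log2 change of the 77 strong rises was 1.66 in GFP_TRA, 1.71 in CGG, 1.71 in siTRA and 1.78 in CGG_siTRA. The median of the 367 strong falls was -1.39 in GFP_TRA, -0.84 in CGG, -0.83 in siTRA and -0.74 in CGG_siTRA. The GFP_TRA values chose both lists, so a larger median change in GFP_TRA is partly set by that choice. Of the strong falls, 117 were called at least 2-fold lower in CGG, 128 in siTRA and 115 in CGG_siTRA. Of the strong rises, 59, 59 and 62 were called at least 2-fold higher in those groups. Over all 14969 genes tested, 185, 298 and 239 were called at least 2-fold lower in CGG, siTRA and CGG_siTRA. At that size 174, 270 and 246 were called higher. Without library b, the medians in siTRA were 1.67 for the strong rises and -0.82 for the strong falls, and 64 of the rises and 125 of the falls were called at that size.

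The comparison of CGG_siTRA with CGG lowers TRA2A, has no control siRNA, and shares no library with GFP_TRA or CTL. In it 619 genes were called higher (4.14%) and 903 lower (6.03%). Of the 2095 genes that were higher in GFP_TRA than in CTL by less than 2-fold, 228 were lower and 68 higher in CGG_siTRA. Of the 1784 that were lower by less than 2-fold, 120 were lower and 154 higher. Of the 367 strong falls 7 were lower and 21 higher, and of the 77 strong rises, TRA2A included, 2 were lower and 2 higher. Without library b of siTRA in the estimate of the spread, 965 genes were called higher and 1263 lower in CGG_siTRA vs CGG. The rises of less than 2-fold then had 312 lower and 102 higher, the falls of less than 2-fold 153 lower and 233 higher, the strong falls 9 lower and 26 higher, and the strong rises 6 lower and 3 higher. The median log2 change in CGG_siTRA vs CGG, with all libraries, was 0.06 for the strong falls and -0.03 for the strong rises, against 0.01 over all genes tested.

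Single genes showed both patterns. Among the 15 largest falls, 7 were also lower than the other treated groups and 8 were not called, and without library b of siTRA 8 were lower and 7 not called. The gene at chr1:11189341-11195981 averaged 192 in GFP_TRA, 675 in CGG, 596 in siTRA, 457 in CGG_siTRA and 873 in CTL, and its log2 change against the other treated groups was -1.65 (adjusted p = 9.01e-07, edgeR), and -1.63 without library b of siTRA. The gene at chr17:80467148-80477843 averaged 8550 in GFP_TRA, 9015 in CGG, 8706 in siTRA, 8279 in CGG_siTRA and 46594 in CTL, so the treated groups lay between 8279 and 9015 and CTL stood apart. Among the 15 largest rises, 3 with TRA2A were higher than the other treated groups, 2 were lower and 10 were not called, with the same counts without library b. The gene at chr22:35380361-35394214, for example, averaged 54495 in GFP_TRA, 57625 in CGG, 46335 in siTRA, 49522 in CGG_siTRA and 7350 in CTL.

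**Figure D3:**
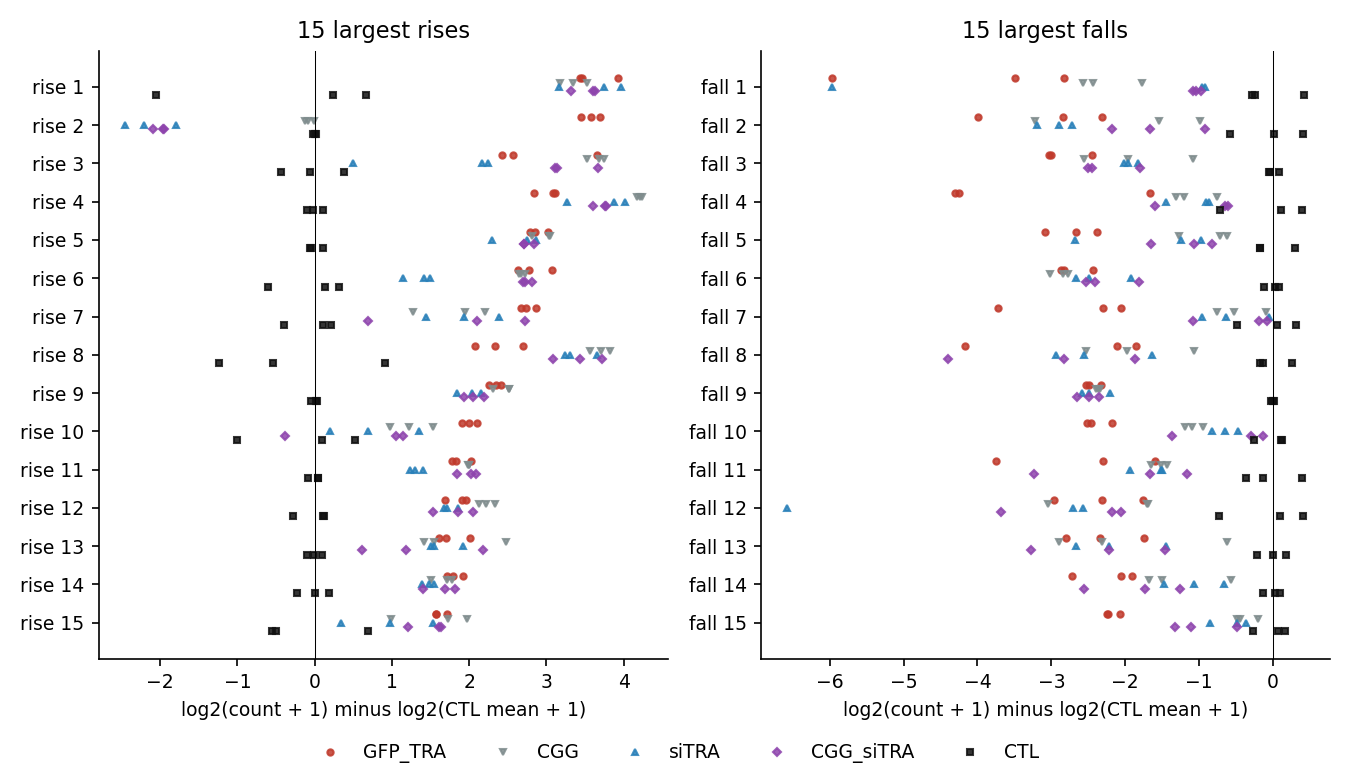
Difference of log2(normalised count + 1) from log2(CTL mean + 1), horizontal axis, for the 15 largest rises (left) and falls (right) in GFP_TRA vs CTL, from the largest at the top, with 1 point per library of each group. TRA2A is rise 2. In 10 of the 15 rises GFP_TRA was not called against the other treated groups, and in 7 of the 15 falls it was called lower than they were.

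The direction of change also went with the length of the gene on the genome. Among single genes spanning under 5 kb, 16.4% were called higher and 5.76% lower in GFP_TRA. Among those spanning 200 kb or more, 4.77% were called higher and 34.1% lower. The median log2 change ran from 0.09 in the shortest class to -0.20 in the longest. In genes with a mean count of 1000 or more, it ran from 0.22 to -0.15, so the gradient was not tied to low counts. In the other groups against the same CTL libraries, the medians of these well-covered genes ran from 0.15 to -0.11 in CGG, from 0.05 to -0.08 in siTRA (0.12 to -0.09 without library b) and from 0.16 to -0.13 in CGG_siTRA.

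Library by library, the median of 1661 genes spanning 100 kb or more minus that of 1164 genes spanning under 10 kb, on the log2 scale relative to CTL, was -0.26, -0.37 and -0.17 in GFP_TRA and -0.01, -0.06 and 0.08 in CTL. The groups did not overlap, and the difference of -0.27 had p = 0.1 in a two-sided exact permutation test, the smallest that 3 against 3 libraries allow. The reference was the mean of the same CTL libraries, which centres them, so the groups did not enter this test on fully equal terms. In the other treated groups the value varied from -0.41 in library c of CGG_siTRA to 0.12 in library b of siTRA. GFP_TRA differed from those 9 libraries by -0.11 (two-sided exact permutation test, p = 0.245), and by -0.07 from the 8 left without library b of siTRA (p = 0.327, the same exact test). The length gradient varied between libraries of 1 group, and its part in the gene calls was not tested.

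**Figure D4:**
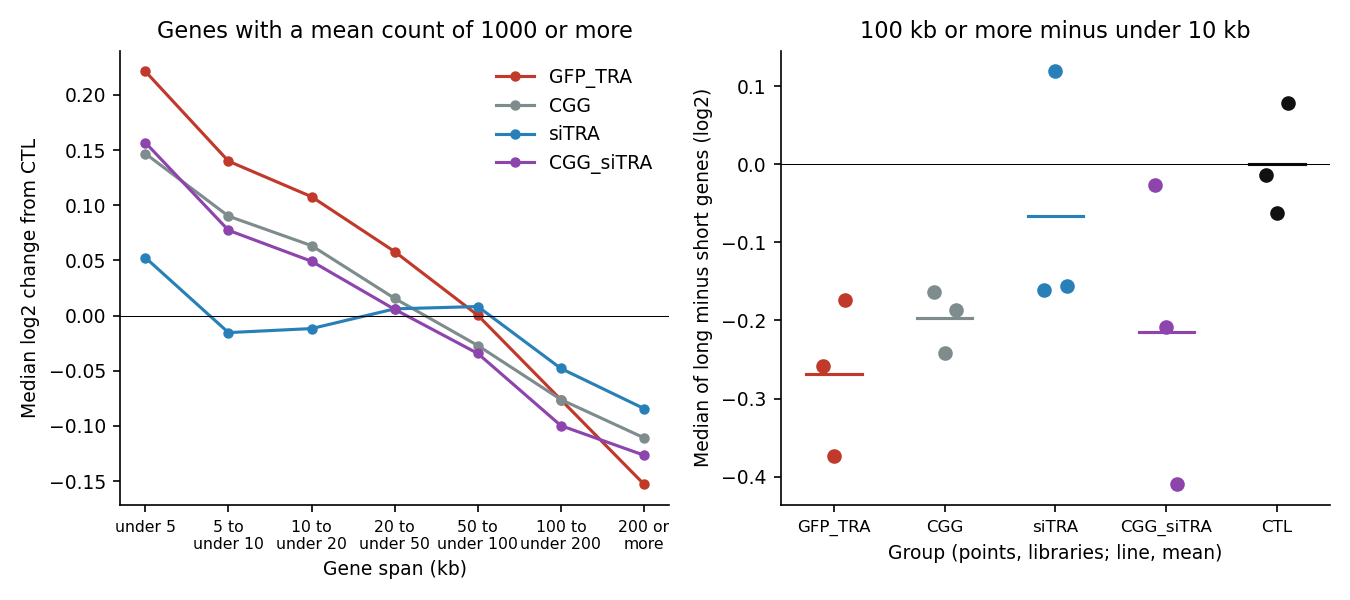
Left, median log2 change from CTL by gene span (kb) in single genes with a mean count of 1000 or more, 1 line per treated group. Right, median of long minus short genes in each library (points) with the group mean (line). The GFP_TRA line falls from 0.22 to -0.15, and the GFP_TRA libraries lie at -0.37 to -0.17 with CTL at -0.06 to 0.08.

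Genes called in either direction were spread over the genome. On the 23 chromosomes with at least 100 genes tested, the share called was from 22.5% on chromosome 19 to 32.1% on chromosome 5. The share called at least 2-fold lower was from 1.1% to 3.6%.

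Relative use of exon bins within their genes was tested for 265486 bins, and 978 passed (0.368%), 491 higher (0.185%) and 487 lower (0.183%) in GFP_TRA (edgeR's diffSpliceDGE, adjusted p under 0.05). They lay in 481 genes or groups of overlapping genes. In 303 of these 1 bin was called, and 30 with 5 or more called bins held 309 of the calls. Groups of overlapping genes, whose reads cannot be assigned to 1 gene, held 379 of the called bins. The count depended on the libraries. Without library a, b or c of GFP_TRA it was 501, 256 and 1493, and without library a, b or c of CTL 403, 598 and 380. Without library c of GFP_TRA, 1139 were higher and 354 lower. In these fits the trend of the spread was kept from all 15 libraries, whereas the fit given next estimated it anew. Without library b of siTRA, which enters only through the estimate of the spread, 1973 bins were called, 1017 higher and 956 lower.

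Leaving out TRA2A and overlapping groups, 584 bins in 352 genes were called, 333 higher and 251 lower. The higher and the lower bins differed in kind. The higher ones had a median width of 71 bases and the lower ones of 245, against 96 for all 221024 bins tested in such genes. Over all of these, 0.151% were called higher and 0.114% lower. Of 37532 bins of up to 27 bases, 105 were higher (0.280%) and 13 lower (0.0346%). Of 8755 bins over 1000 bases, 13 were higher (0.148%), a share near that of all bins, and 48 lower (0.548%). Of 4125 bins at the 5′ end of their gene, 36 were higher (0.873%) and 4 lower (0.0970%). Of 6547 bins at the 3′ end, 2 were higher (0.0305%) and 11 lower (0.168%). Isolated bins, which touch no other bin, were called rarely, with 29 of 58959 (0.049%). Bins touching others on both sides were called more often, with 376 of 70687 (0.532%).

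Bins that touch other bins are pieces of exons whose boundaries differ between annotated transcripts, and include parts that all transcripts share. Of 17604 such bins over 300 bases, 90 (0.511%) in 71 genes were called lower in GFP_TRA, against 0.114% of all bins tested in single genes. The median share of the gene's counts on such a bin was 0.522 times the CTL share in GFP_TRA, 0.634 times in CGG, 0.822 times in siTRA (0.720 without library b) and 0.924 times in CGG_siTRA. Wide bins called higher numbered 36 (0.204%), and their median share was 1.94 times that of CTL in GFP_TRA, 1.69 times in CGG, 1.75 times in siTRA (1.72 without library b) and 1.87 times in CGG_siTRA. The GFP_TRA values here chose the bins, and all 4 ratios share CTL.

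Comparing CGG_siTRA with CGG, which share no library with GFP_TRA or CTL, gives the bins under TRA2A knockdown. This comparison has no control siRNA. In it 358 bins were called (0.135%), and over all bins tested 49.99% had the sign opposite to that in GFP_TRA vs CTL. Of the 251 bins lower in GFP_TRA, single genes without TRA2A, 87.6% had the opposite sign under knockdown. Of these 251, 40 were called there, 39 of them in the opposite direction. Of the 333 bins higher in GFP_TRA, 16.2% had the opposite sign and 3 were called, 0 of them opposite. Most bins of both sets thus had a higher relative use in CGG_siTRA than in CGG. Of the 90 wide bins above, 17 were called higher and 0 lower under knockdown. Without library b of siTRA in the estimate of the spread, 912 bins were called in CGG_siTRA vs CGG. They held 65 of the 251 lower bins, 63 in the opposite direction, 4 of the 333 higher bins, 0 opposite, and 28 of the 90 wide bins, each of them higher.

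Named bins show what these counts are. The bin chr2:190920045-190920214 had 12.7, 14.6 and 20.2 in GFP_TRA and 41.9, 70.7 and 68.3 in CTL, while its gene summed to 61775 and 61432. It was 0.0256% of the gene's counts in GFP_TRA and 0.0981% in CTL (adjusted p = 0.000514, diffSpliceDGE). In CGG it was 0.0453%, in siTRA 0.0670% (0.0464% without library b) and in CGG_siTRA 0.0667%. The neighbouring pieces chr7:44798815-44798851 and chr7:44798852-44798904 fell together. The first had 42.9, 39.3 and 51.6 in GFP_TRA and 93.4, 118 and 123 in CTL, and the second 41, 34.7 and 35.9 in GFP_TRA and 80.5, 97.6 and 109 in CTL (adjusted p = 5.65e-05 and 0.00013, diffSpliceDGE). The first averaged 50.8 in CGG, 92.0 in siTRA (75.5 without library b) and 88.5 in CGG_siTRA, whose libraries ran from 39.6 to 145. The second averaged 42.9 in CGG, 79.7 in siTRA (63.0 without library b) and 75.1 in CGG_siTRA, whose libraries ran from 35.9 to 125.

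Larger shares were involved elsewhere. The last piece of the gene at chr9:76358971-76362339, with 3369 bases, had 33.2, 22.9 and 39.3 in GFP_TRA and 53.7, 57.6 and 53.7 in CTL, while the gene's sum was 5894 in GFP_TRA and 3511 in CTL. Its share was 0.539% in GFP_TRA and 1.57% in CTL (adjusted p = 4.23e-05, diffSpliceDGE). In CGG the share was 0.802%, in siTRA 0.960% (0.906% without library b) and in CGG_siTRA 0.839%. In an overlapping group on chromosome 16 the bin chr16:83914956-83916171 held 6.43% of the counts in GFP_TRA and 21.7% in CTL. It held 7.42% in CGG, 5.62% in siTRA (5.71% without library b) and 5.86% in CGG_siTRA, so CTL stood apart. The bin itself had 188, 207 and 166 in GFP_TRA and 263, 242 and 263 in CTL, and the group as a whole rose (log2 change 1.29, adjusted p = 4.84e-09, edgeR).

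Among the bins used more, chr2:232567528-232568020 had 273, 239.5 and 302 in GFP_TRA and 61.2, 80.0 and 80.0 in CTL, and its share of the gene was 1.78% in GFP_TRA and 0.571% in CTL (adjusted p = 1.9e-19, diffSpliceDGE). The bin that touches it, chr2:232567215-232567527, had a share of 1.62% in GFP_TRA and 0.619% in CTL. The share of the first was 2.21% in CGG, 2.35% in siTRA (2.33% without library b) and 2.08% in CGG_siTRA. That of the second was 2.04% in CGG, 1.94% in siTRA (2.03% without library b) and 1.91% in CGG_siTRA. In both bins CTL thus stood apart from all treated groups. The bin chr4:56399401-56400783 had 222, 225 and 307 in GFP_TRA and 91.3, 81.8 and 72.2 in CTL (adjusted p = 5.81e-17, diffSpliceDGE). Its share was 1.39% in GFP_TRA, 1.62% in CGG, 1.88% in siTRA (1.82% without library b), 1.57% in CGG_siTRA and 0.441% in CTL, so CTL was the group that stood apart. The bin chr12:98599635-98599857, in an overlapping group, was the reverse case. It had 442, 1057 and 709 in GFP_TRA and 107, 137 and 196 in CTL, and its share was 0.552% in GFP_TRA, 0.157% in CGG, 0.218% in siTRA (0.206% without library b), 0.207% in CGG_siTRA and 0.138% in CTL. The GFP_TRA libraries there spread over more than a 2-fold range. The bins at chr15:76931755-76931870, with 67.3, 134 and 25.8 in GFP_TRA and 15, 15.8 and 14.6 in CTL, and chr19:44891407-44891409, with 65.3, 119 and 29.2 in GFP_TRA and 21.5, 25.1 and 8.8 in CTL, were called in 2 and 1 of the 6 fits that left out a library.

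Splicing events were given by the authors' deposited EventPointer table, with a p-value and a change in percent spliced in (PSI, here a fraction) for each of 6311 events. The values are the authors' own and have no samples behind them here. The direction is not stated in the table. It was read as GFP_TRA minus CTL because, among cassette exons with an adjusted p under 0.05, the sign was that of the exon's bins for 33 of 37, and for 11 of 11 with a change of 0.1 or more. After Benjamini-Hochberg adjustment of the authors' p-values, 77 events passed (1.22%). With a change of at least 0.1 as well, 29 passed (0.46%), 9 higher and 20 lower in GFP_TRA.

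Inclusion of cassette exons, which a transcript either holds whole or skips, was lower in 9 and higher in 2 of the 11 such events called, out of 1580. Alternative first exons had 0 higher and 5 lower, alternative last exons 2 and 3, alternative 3′ splice sites 3 and 2, alternative 5′ splice sites 1 and 0, and complex events 1 and 1. Of 129 retained introns and 41 pairs of mutually exclusive exons 0 were called by EventPointer, also without the minimum change, and 9 and 1 had an unadjusted p under 0.05 in the authors' deposited table. A value of PSI for a first or last exon refers to the path that the authors' program took as the reference, which the table does not show.

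In the authors' deposited table the largest change was a cassette exon at chr10:26770345-26777065, with a change of -0.254 (adjusted p = 3.72e-10). Its exon, the isolated bin chr10:26771075-26771089 of 15 bases, had 212, 274 and 257 normalised counts in GFP_TRA and 443, 420 and 436 in CTL. The bin averaged 259 in CGG, 259 in siTRA and 255 in CGG_siTRA, so every treated group lay below CTL. Its share of the gene was 1.31% in GFP_TRA and 2.47% in CTL (adjusted p = 9.36e-08, diffSpliceDGE), while the gene itself was not called (log2 change 0.10, adjusted p = 0.143, edgeR).

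Other cassette exons had smaller differences in their bins. The exon chr1:85258935-85259061 had a change in PSI of -0.162 in the authors' deposited table, and its bin had 143, 178 and 150 in GFP_TRA and 194, 200 and 184 in CTL (adjusted p = 0.10, diffSpliceDGE). The exon chr14:39320928-39321056 had a change of -0.172 in that table and 231, 250 and 224 in GFP_TRA against 282, 258 and 304 in CTL, so the groups did not overlap, yet the bin was not called (adjusted p = 1, diffSpliceDGE). The exon chr2:86153560-86153574, of 15 bases, had a change of -0.127 in that table and 919, 998 and 1091 in GFP_TRA against 1245, 1223 and 1200 in CTL (adjusted p = 0.394, diffSpliceDGE). Another bin inside that event, chr2:86158477-86158591, had 83.9, 94.2 and 113 in GFP_TRA against 79.4, 72.5 and 64.4 in CTL (adjusted p = 1, diffSpliceDGE). The exon chr2:112485917-112485995 was a rise, with a change of 0.117 in that table and 699, 645 and 693 in GFP_TRA against 446, 436 and 519 in CTL. Its bin was not called relative to the gene (adjusted p = 1, diffSpliceDGE), and its gene rose (log2 change 0.33, adjusted p = 0.000111, edgeR).

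The authors' deposited table of CGG_TRA vs CGG tests the same overexpression in cells with the repeat and shares no sample with GFP_TRA vs CTL. Of the 29 events, 16 had the same sign there, against 53.2% of all events with a change other than 0 in both tables. An unadjusted p under 0.05 was listed for 8 of the 29, 5 with the same sign, against 8.13% of all 6311 events. In that comparison 4 events (0.0634%) passed the rule used above. The alternative 3′ splice site at chr4:139072003-139073454 changed by 0.161 in GFP_TRA vs CTL (adjusted p = 5.01e-05) and by 0.139 in CGG_TRA vs CGG (adjusted p = 0.00263), per the authors' deposited tables. The cassette exon on chromosome 10 with the largest change, by contrast, had a change of 0.0382 in CGG_TRA vs CGG (unadjusted p = 0.00961), per the authors' deposited table.

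**Figure D5:**
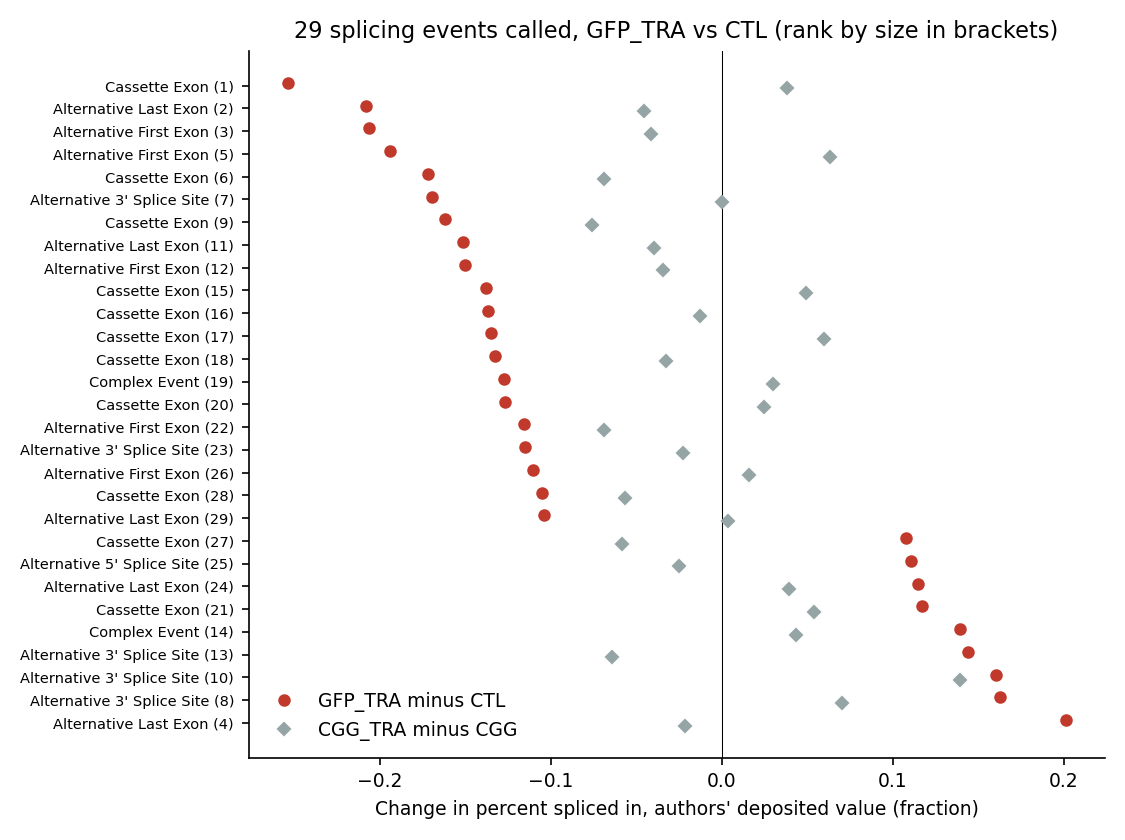
Change in PSI (fraction, authors' deposited values) of the 29 events called in GFP_TRA vs CTL, with the same events in CGG_TRA vs CGG. Of the 29, 20 are below 0 and 9 above 0 in GFP_TRA vs CTL, and 16 have the same sign in both comparisons, with the alternative 3′ splice site of rank 10 at 0.161 and 0.139.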

How the data were processed

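Total RNA was extracted with a Qiagen protocol and DNase and made into TruSeq libraries depleted of ribosomal RNA, per the labels' protocols. The submitters' processing notes list cutadapt 1.14, STAR 2.5.2, the assembly GRCh38.p10 and DESeq2 without a version. The authors deposited raw counts per exon bin in DEXSeq tables for the libraries compared, along with log2 fold changes of bin use and p-values, raw and adjusted, per the file headers. The authors also deposited a normalised signal per bin for 15 libraries. After multiplication by a single factor in each library, 100.0% of its values were whole to within 0.1 of a read. Rounded, they equalled the deposited counts in 6311190 of 6311190 cells. The EventPointer tables deposited by the authors list for each event the change in PSI (a fraction), a z score and a p-value, per the file headers. The PSI direction is not stated.

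Summing the 431444 bins in the comparison tables gave values for 19997 genes, of which 1905 are groups of genes that overlap. A read that overlaps several bins may be counted in each, so sums can exceed reads. Bins outside these tables held 1.56% to 2.10% of a library's counts. Count columns carry library numbers that were matched to groups by the tables that name them, not to sample titles.

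Genes with 10 or more normalised counts in at least 3 libraries were tested with edgeR 4.0.16 in R 4.3.3 (quasi-likelihood, TMM scaling), with Benjamini-Hochberg adjusted p under 0.05. All 15 libraries entered, as 5 group means that share 1 estimate of the spread. Relative use of bins was tested with diffSpliceDGE of edgeR, for genes in which 2 bins or more reached 10 in 3 libraries. On simulated counts for GFP_TRA vs CTL, the gene test over 14969 genes with 200 changed recovered 66% of those changed 1.5-fold and 82% of those changed 2-fold, with 6 false among 154 calls. The bin test over 265486 bins recovered 31% and 60%, with 1 of 93 calls in an unchanged gene. In both simulations each count was drawn on its own, with no reads shared between bins, no outlying library and no change beyond those 200. These shares of false calls therefore need not hold in the data. limma 3.58.1 and DESeq2 1.42.0 served as alternatives, as did other scalings, filters and library sets, listed with their effect at the end.

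The genes named are the 15 largest rises and falls among single genes called, where the higher group had to average at least 50 and the libraries of the groups not to overlap. The planned rule also asked for a gene name, which was dropped because the files pair none, and planned gene lists and markers were not tested for the same reason. Named bins are the 6 genes a side with the largest change in relative use, under the same minimum. The planned rule for events took the 12 with the largest change. The events described singly did not follow it and were picked among the 29 called, mainly as cassette exons with bins of their own. The comparison, lists and tests were chosen with earlier results of these data known. The intervals, SDs and SEs cover these libraries only. CGG_TRA counts were not analysed here.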

Additional observations from a re-analysis of the deposited data

How the results depend on the processing

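The genes called in GFP_TRA vs CTL numbered 3818 to 5597 under other scalings, DESeq2, limma, no filter, GFP_TRA and CTL libraries alone, whole reads recovered from the normalised table and single genes only, and 3005 with the highest bin of each gene. They numbered 3022 to 3542 when 1 library of GFP_TRA or CTL was left out. Strong falls outnumbered strong rises in each of these fits, with 301 to 420 lower and 64 to 100 higher. The median log2 change of all genes stayed between -0.01 and 0.02, which the scaling largely sets by placing the typical gene near no change. Without library b of siTRA, 5362 genes were called, with 85 strong rises and 415 strong falls. Under the alternatives before that one, TRA2A kept direction and call. For the other 29 named genes 401 of 402 values under them kept both, and 1 kept its direction only. It was the fall at chr12:71439770-71586306, which averaged 18.9 in GFP_TRA and 94.5 in CTL and had an adjusted p of 0.173 (edgeR) with the highest bin. For 4 other named falls, the largest included, that setting gave no value.

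The number of bins called was the least stable result. It was 978 in the test used, 3427 with limma's diffSplice (1332 higher, 2095 lower), 2130 with the libraries of GFP_TRA and CTL alone, 584 in single genes without TRA2A, 1973 without library b of siTRA and 256 to 1493 when 1 library of GFP_TRA or CTL was left out. By the authors' deposited DEXSeq adjusted p, 4209 of 317754 bins passed (1.32%), with 1476 higher and 2732 lower in GFP_TRA. Of the 978 bins, 664 (67.9%) were also called there, which is 15.8% of that table's calls, and 978 had the same direction. On simulated counts 1612 of the 1750 calls of limma's diffSplice lay in genes without a change. Splicing events called numbered 29, 4 with a change of 0.2 or more, and 50 with the authors' unadjusted p under 0.01 in place of the adjusted one. The bin fits that left out 1 library of GFP_TRA or CTL kept the trend of the spread from all 15 libraries. The cause of these differences was not tested.

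No paired analysis was possible because the count columns carry library numbers that were not matched to the numbers in the sample titles. Depth limits the low genes. The median SE of a log2 change was 0.63 in genes with a mean count under 30 and 0.07 at 10000 or more, so a 2-fold change is within reach of the test less often under 30. The alternatives on recovered reads, single genes, TRA2A left out and library b of siTRA were chosen after seeing the data.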
